A study of Danio rerio with 6 samples.

Results

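Skeletal muscle contractile genes were described across cells sorted by a heart reporter from zebrafish embryos. The names chosen were atp2a1, tnnt2c, tnnt3a, tnnt3b, mylpfa, acta1b, ckma, smyhc1, tpma and neb. A row was taken where the gene name table gave that name, or the name without its final a or b, in upper or lower case. Of the 10 names, 8 led to a row, and these gave 9 of the 27456 gene rows. The troponin T names tnnt3a and tnnt3b share the rows TNNT3 (ENSDARG00000030270) and TNNT3 (ENSDARG00000068457), and acta1b leads to ACTA1 (ENSDARG00000036371) and ACTA1 (ENSDARG00000055618). Within these pairs the name table does not say which row is the a or the b copy. The fast myosin light chain gene mylpfa and the slow myosin heavy chain gene smyhc1 matched no row by this rule and were not analysed here. No slow myosin is therefore among the rows described, and slow fibres are represented by a separate list of genes.

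The study compared 2 groups of 3 libraries each, all from embryos of the line tg(myl7::gfp) at 24 hours post fertilization (hpf). The Gata4 morphant embryos had been injected at an early cleavage stage with 2 nl of a 0.7 mM morpholino, a synthetic antisense oligomer, against Gata4, a transcription factor of heart development. The wildtype embryos are given no injection in their group label, and whether they received a control oligomer is not given in the sources used here. About 200 embryos were pooled per batch, dissociated and sorted by flow cytometry as cardiomyocytes. In both groups green fluorescent protein is made from the promoter of myl7, a myosin light chain gene of the heart, so the sort depends on a cardiac promoter. The oligomer, of 25 bases, is shown because it is the only agent that separates the groups by their labels, and its sequence carries no capitals because no part of it was examined.
Gata4 morpholino: tccacaggtgagcgattattgcttc

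Skeletal muscle of the fish trunk arises from the somites, where fast and slow fibres form from separate precursors under the myogenic regulators Myod1 and Myf5. Fibres contract when calcium released from the sarcoplasmic reticulum binds troponin, which moves tropomyosin on the actin filament and lets myosin bind. Heart muscle uses the same machine with other copies of many of its genes, so a skeletal copy in a heart sort can be set against its cardiac relative.

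The libraries held 12574486 to 37906530 counts in morphants and 15302189 to 21119399 counts in wildtype. Morphant replicate 1 and wildtype replicates 1 and 2 came from an mRNA-Seq kit and the others from a TruSeq kit. Replicates are numbered in the order in which they were deposited, and no number links a morphant to a wildtype library. Nothing says that the libraries of a group came from separate clutches. Every p-value therefore sets a difference only against the spread of these samples, and that spread may be technical. The RNA of gata4 was not analysed here, so the labels were not checked on the targeted gene. The heart gene MYL7 was present in every library, at 385, 237 and 268 CPM in morphant replicates 1 to 3 and 1004, 699.9 and 433 CPM in wildtype. CPM here means the count scaled to a common library size after TMM normalization. Leukocyte markers summed to 1094, 10349.5 and 2577 CPM in morphants, against 5904, 9025 and 11689 CPM in wildtype. Morphant replicate 2 thus stood apart from morphant replicates 1 and 3 and within the wildtype range for these markers, and it stood apart in the muscle genes as well.

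All 9 rows had reads in every library, and most stood several-fold higher in morphant replicates 1 and 3 than in wildtype, while morphant replicate 2 was lower than every wildtype library. A total of 6 of the 9 rows followed this pattern with a large difference, namely atp2a1, tnnt2c, TNNT3 (ENSDARG00000030270), tpma, NEB and ckma. The second TNNT3 row followed it with a small difference, and the ACTA1 rows, the alpha actins, did not follow it. In bulk RNA of sorted cells, more muscle cells and more RNA of these genes per cell cannot be told apart.

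The gene atp2a1 encodes the calcium pump of the fast fibre's sarcoplasmic reticulum, which returns calcium after contraction. It had 19290, 5242 and 35299 counts in morphant replicates 1 to 3, against 2843, 3249 and 5553 counts in wildtype. Scaled, with each group's values in the order of replicates 1 to 3 here and in what follows, these were 1198, 151 and 1839.6 CPM in morphants and 187, 172 and 356 CPM in wildtype. Morphant replicates 1 and 3 lay above all wildtype libraries and morphant replicate 2 below them, so the groups overlap. The group means were 1063 ± 853 CPM in morphants and 238 ± 102 CPM in wildtype (SD, n = 3 each). The log2 fold change, morphant minus wildtype, was 2.11 (SE 0.83) in edgeR's quasi-likelihood test with a term for the kit, with an unadjusted p of 0.0379 and a Benjamini-Hochberg adjusted p of 0.393 over all genes tested.

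Troponin T ties the troponin complex to tropomyosin. The troponin T gene tnnt2c had 456, 37.0 and 446 CPM in morphants, against 45.8, 45.7 and 61.7 CPM in wildtype. Relative to the wildtype mean, morphant replicates 1 and 3 were at 8.93 and 8.74 times that level, and morphant replicate 2 was at 0.724 of it. This gene had the largest fitted difference of the 9 rows, a log2 fold change of 2.64 (SE 0.85, edgeR unadjusted p = 0.0168, adjusted p = 0.393). TNNT3 (ENSDARG00000030270), a fast fibre troponin T, had 72.9, 10.7 and 85.3 CPM in morphants, against 12.7, 16.3 and 24.2 CPM in wildtype, and a log2 fold change of 1.66 (SE 0.74, edgeR unadjusted p = 0.0593, adjusted p = 0.393). In both genes morphant replicates 1 and 3 were above, and morphant replicate 2 below, all wildtype libraries. TNNT3 (ENSDARG00000068457) was nearer to wildtype, with 33.9, 9.69 and 31.6 CPM in morphants and 18.3, 20.2 and 23.3 CPM in wildtype. Its log2 fold change of 0.32 (SE 0.51) turned to -0.25 without morphant replicate 1 and to -0.08 without morphant replicate 3. Reads shared between these copies may have been split by the authors' counting, and the rows are uncertain to that degree.

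Among the other thin filament genes, tpma, a tropomyosin of striated muscle, and NEB, the giant filament protein nebulin that spans the actin filament, followed atp2a1. The level of tpma was 374, 52.0 and 521 CPM in morphants, against 70.3, 58.7 and 106 CPM in wildtype, with a log2 fold change of 1.98 (SE 0.78, edgeR unadjusted p = 0.0380, adjusted p = 0.393). NEB had 242, 16.2 and 122 CPM in morphants, against 64.8, 27.8 and 27.7 CPM in wildtype, with a log2 fold change of 1.85 (SE 0.76, edgeR unadjusted p = 0.0441, adjusted p = 0.393). For both genes the order of the libraries was as for atp2a1 in that 2 morphant libraries were above and 1 was below all wildtype libraries.

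The muscle creatine kinase gene ckma, which buffers ATP in the working fibre, had 321, 72.1 and 547 CPM in morphants, against 73.6, 95.9 and 149.9 CPM in wildtype. Morphant replicate 2 lay just under wildtype replicate 1, its nearest neighbour, and the log2 fold change was 1.48 (SE 0.70, edgeR unadjusted p = 0.0713, adjusted p = 0.394). Its paralog ckmb, which is outside the 9 rows, had 508, 71.6 and 779 CPM in morphants, against 70.8, 77.6 and 160.0 CPM in wildtype.

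The alpha actins behaved otherwise. ACTA1 (ENSDARG00000036371) had 471, 244 and 618 CPM in morphants, against 500.3, 369 and 334 CPM in wildtype. Only morphant replicate 3 was above all wildtype libraries, and the log2 fold change of 0.24 (SE 0.43; adjusted p = 0.776, edgeR) turned to -0.18 without that library. ACTA1 (ENSDARG00000055618) had 491, 374 and 672 CPM in morphants, against 859, 592 and 682 CPM in wildtype, with -0.47 as its log2 fold change (SE 0.36; adjusted p = 0.503, edgeR). For this row morphant replicates 1 and 2 were below all wildtype libraries and morphant replicate 3 was inside their range. Actin genes are nearly identical in their coding sequence, so reads of the skeletal, cardiac and other copies may have been split or dropped, and the values of these rows are uncertain to that degree.

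**Figure D1:**
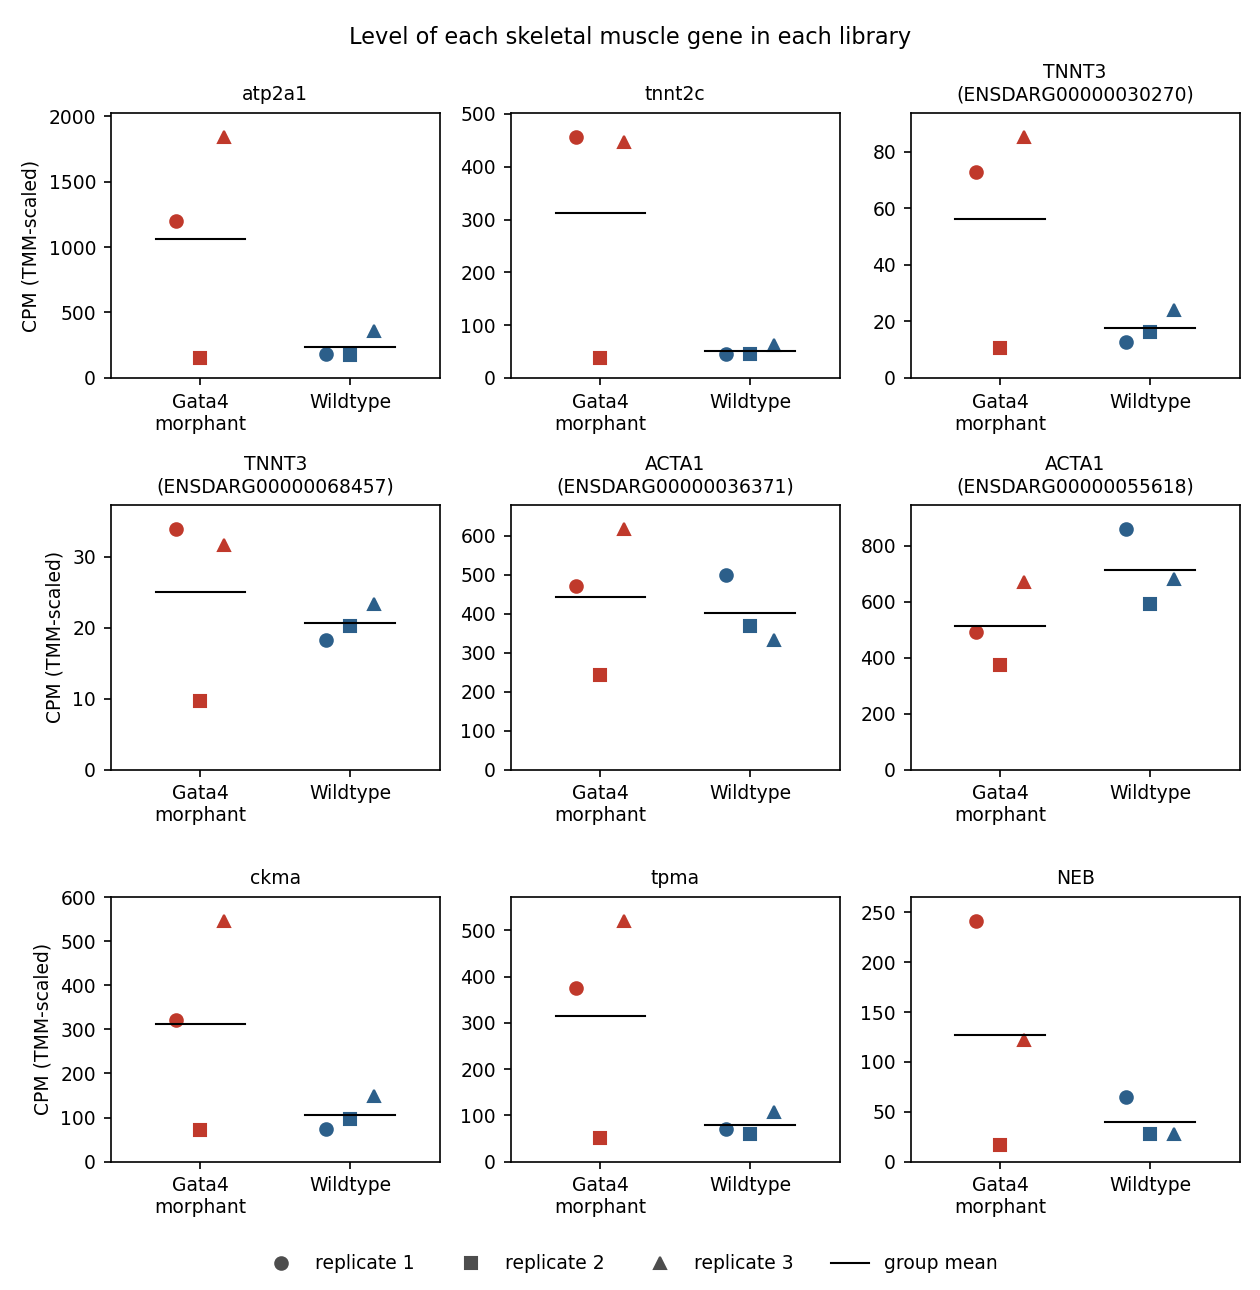
Level in TMM-scaled CPM (vertical axis, linear, from 0) of each of the 9 rows in the 3 Gata4 morphant and 3 wildtype libraries, with symbols for replicates and a line for the group mean. Morphant replicate 2 (square) is the lowest of the 6 libraries in all 9 panels, and morphant replicates 1 and 3 are above every wildtype library in 7 of them.

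Counted over the 9 rows, morphant replicates 1 and 3 were above every wildtype library in 7, where 28.6% of all 18033 genes tested were. Morphant replicate 2 was below every wildtype library in 9 of 9, against 23.6% of all genes tested. No row had every morphant library above every wildtype library (7.76% of all genes) or below it (5.78%). At an unadjusted edgeR p under 0.05, 4 of the 9 rows were higher in morphants and 0 lower, where 7.62% of all genes tested were higher and 12.5% differed in either direction. That count of 4 became 6 without morphant replicate 2, where 18.5% of all genes were higher at that p. It became 0 without morphant replicate 1 or 3, where 1.48% and 2.98% of all genes were higher, and 0 without wildtype replicate 1 or 2, where 3.65% and 2.13% were. The median log2 fold change was 1.66 over the 9 rows and 0.07 over all genes, and that of the 9 rows was 0.96 without morphant replicate 1 and 0.97 without morphant replicate 3. Scaled by library totals alone, the median of all genes moved to 0.46 and that of the 9 rows to 2.11, with 8 of 9 rows positive under either scaling.

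After adjustment over all genes, edgeR called 0 of the 9 rows, and 0% of all genes tested. DESeq2 also called 0 of the 9, with a smallest adjusted p of 0.0613 for tnnt2c, where it called 1.56% of all genes and 0.66% as higher. At an unadjusted p under 0.05 DESeq2 had 6 of the 9, all higher, and 9.17% of all genes as higher. In limma-voom 0 of the 9 were called and 0 had an unadjusted p under 0.05, where 0% and 12.5% of all genes did. In the authors' deposited table, 6 of the 9 rows had an adjusted p under 0.05 with the higher base mean in morphants, where 2.56% of its genes had such an adjusted p and 2.3% were higher in morphants. For atp2a1 the authors' deposited table gives base means of 19259 in morphants and 4600.1 in wildtype with an adjusted p of 1.81e-05. For tnnt2c the authors' deposited table gives 5644 in morphants and 985 in wildtype with an adjusted p of 1.68e-08. The file headers of that table name no tool and no kit term.

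The result turned on morphant replicate 2. Without it, edgeR called 6 of the 9 rows higher in morphants, where it called 19.7% of the genes tested in that fit and 8.19% as higher. The log2 fold change was then 2.55 (SE 0.24) for atp2a1 and 3.08 (SE 0.24) for tnnt2c, both with an edgeR adjusted p of 0.00971, and 2.40 (SE 0.24) for tpma. It was 2.24 (SE 0.38) for NEB, 2.07 (SE 0.27) for TNNT3 (ENSDARG00000030270) and 1.86 (SE 0.24) for ckma, with edgeR adjusted p of 0.0152, 0.0103 and 0.0103 in that order. The other TNNT3 row and the ACTA1 rows were not called (edgeR adjusted p = 0.147, 0.348 and 0.399). Since morphant replicate 2 had the lowest value of every row, that fit leaves out the values that stood against a difference. Without any other library, edgeR called 0 of the 9.

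Within the kits, the fold changes kept their direction for 8 of the 9 rows and differed in size. For atp2a1 the log2 fold change was 2.67 in the mRNA-Seq libraries, 1 morphant against 2 wildtype, and 1.35 in the TruSeq libraries, 2 morphants against 1 wildtype. For tnnt2c these were 3.25 and 1.84, and for NEB 2.32 and 1.19. TNNT3 (ENSDARG00000068457) had 0.75 and -0.29. The mRNA-Seq fit called 6 of the 9 rows higher, where 22.0% of all genes were called and 9.65% as higher, but it takes its spread from the wildtype pair alone and assumes that the lone morphant library varies likewise. With the spread of both kits in 1 fit, an alternative chosen after seeing the data, edgeR called 0 of the 9 and 0 genes in all within the mRNA-Seq libraries. In that fit atp2a1 had a log2 fold change of 2.74 (SE 1.11; adjusted p = 0.311, edgeR), and 4 of the 9 had an unadjusted p under 0.05, where 6.70% of all genes were higher at that p. The fit of the TruSeq libraries alone takes its spread from morphant replicates 2 and 3, at 151 and 1839.6 CPM for atp2a1. Few calls in it therefore do not show that a difference is absent. The TruSeq fit called 0 of the 9, with 0 at an unadjusted p under 0.05, and 0.0051% of all genes.

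**Figure D2:**
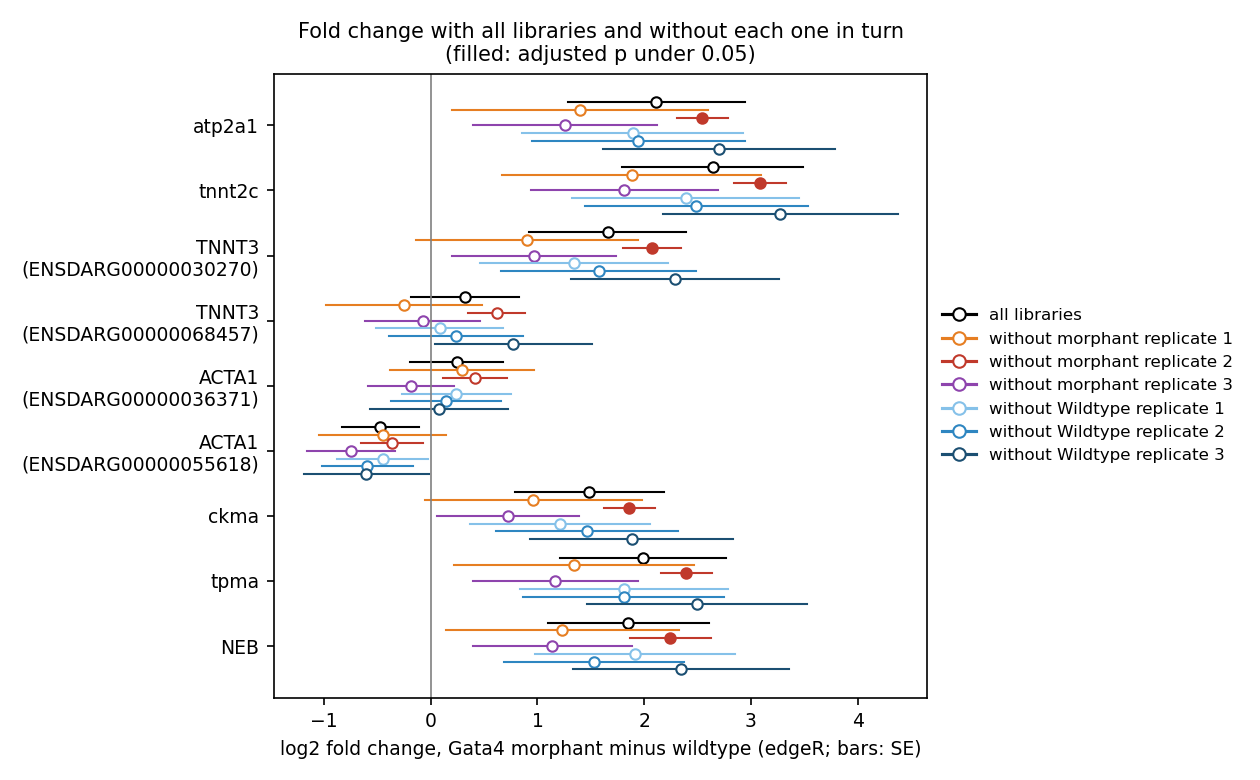
Log2 fold change, Gata4 morphant minus wildtype (horizontal axis), of the 9 rows in edgeR with all libraries and without each library in turn, with bars for the SE and filled points for an adjusted p under 0.05. Filled points appear for 6 rows and in the fit without morphant replicate 2 alone, where atp2a1 is at 2.55 and tnnt2c at 3.08.

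Levels of different genes were compared per length, on the authors' RPKM values. Averaged over morphants, ACTA1 (ENSDARG00000055618) was at 326 ± 95.4 RPKM and ACTA1 (ENSDARG00000036371) at 201 ± 85.7 RPKM (SD, n = 3), followed by ckma at 195 ± 147, tnnt2c at 165 ± 126, tpma at 121 ± 91.5 and atp2a1 at 109.6 ± 87.7 RPKM. The order in wildtype was the same for the actins and ckma, at 448 ± 73.6, 179 ± 34.0 and 65.8 ± 25.4 RPKM, followed by tpma at 29.7 ± 9.73, tnnt2c at 26.6 ± 5.21 and atp2a1 at 24.4 ± 10.8 RPKM. Neighbours from ACTA1 (ENSDARG00000036371) to atp2a1 in morphants, and from tpma to atp2a1 in wildtype, differed by less than their SDs. The TNNT3 rows and NEB were lowest in both groups, with NEB at 2.59 ± 2.32 RPKM in morphants and 0.801 ± 0.403 RPKM in wildtype. They were also the lowest rows in mean CPM.

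Several of these genes kept similar proportions to each other inside each library. The ratio of tpma to atp2a1 in CPM was 0.312, 0.345 and 0.283 in morphant replicates 1 to 3, against 0.377, 0.342 and 0.298 in wildtype. This ratio spanned 1.33-fold over the 6 libraries, while the level of atp2a1 itself spanned 12.2-fold. For ckma, TNNT3 (ENSDARG00000030270) and tnnt2c the ratio to atp2a1 spanned 2.08-fold, 2.05-fold and 2.20-fold. For NEB it spanned 5.24-fold and for TNNT3 (ENSDARG00000068457) 6.87-fold. The actins varied most against atp2a1. ACTA1 (ENSDARG00000055618) was at 0.410, 2.48 and 0.365 of atp2a1 in morphant replicates 1 to 3, against 4.61, 3.45 and 1.92 in wildtype.

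Set against relatives that the heart uses, atp2a1, tnnt2c and tpma exceeded the relative's RPKM in morphant replicates 1 and 3 and were below it in every wildtype library. Morphant replicate 2 was above or inside the wildtype range depending on the relative. A ratio of RPKM inside a library does not depend on the scaling between libraries. Whether it passes 1 does depend on the gene lengths behind the RPKM, which were not checked. The calcium pump atp2a1 stood at 9.60, 1.09 and 8.42 times the RPKM of atp2a2a, a pump gene of the heart, in morphant replicates 1 to 3, against 0.372, 0.517 and 0.934 times in wildtype. Against ATP2A2, the other pump row of that kind, the ratios were 2.38, 0.128 and 1.91 in morphants and 0.107, 0.108 and 0.205 in wildtype. Morphant replicate 2 was thus just above the wildtype range for atp2a2a and inside it for ATP2A2. For tnnt2c over the cardiac troponin T gene TNNT2 the ratios were 6.48, 0.851 and 10.2 in morphants and 0.252, 0.376 and 0.745 in wildtype. For tpma over the heart tropomyosin gene tpm4a they were 1.76, 0.228 and 1.42 in morphants, against 0.144, 0.174 and 0.305 in wildtype, with morphant replicate 2 inside the wildtype range. In CPM, without lengths, tpma was below tpm4a in morphant replicates 1 and 3 too, at 374 and 521 against 528 and 910.5 CPM. In wildtype replicate 3 atp2a1 was above atp2a2a, at 356 against 308 CPM. For atp2a1 over ATP2A2 and tnnt2c over TNNT2 the crossing was the same in CPM. Other pairs did not all cross in this way. In RPKM, the fast myosin gene myhz1.3 was at 58.0 and 23.7 times MYH7 in morphant replicates 1 and 3. Against MYH6 (ENSDARG00000079564) it was at 0.842 and 0.449. In these libraries TNNT3 (ENSDARG00000030270) was at 0.715 and 1.34 of TNNT2, and mybpc2b at 1.09 and 0.916 of MYBPC3. ACTA1 (ENSDARG00000055618) was above ACTC1 in every library.

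**Figure D3:**
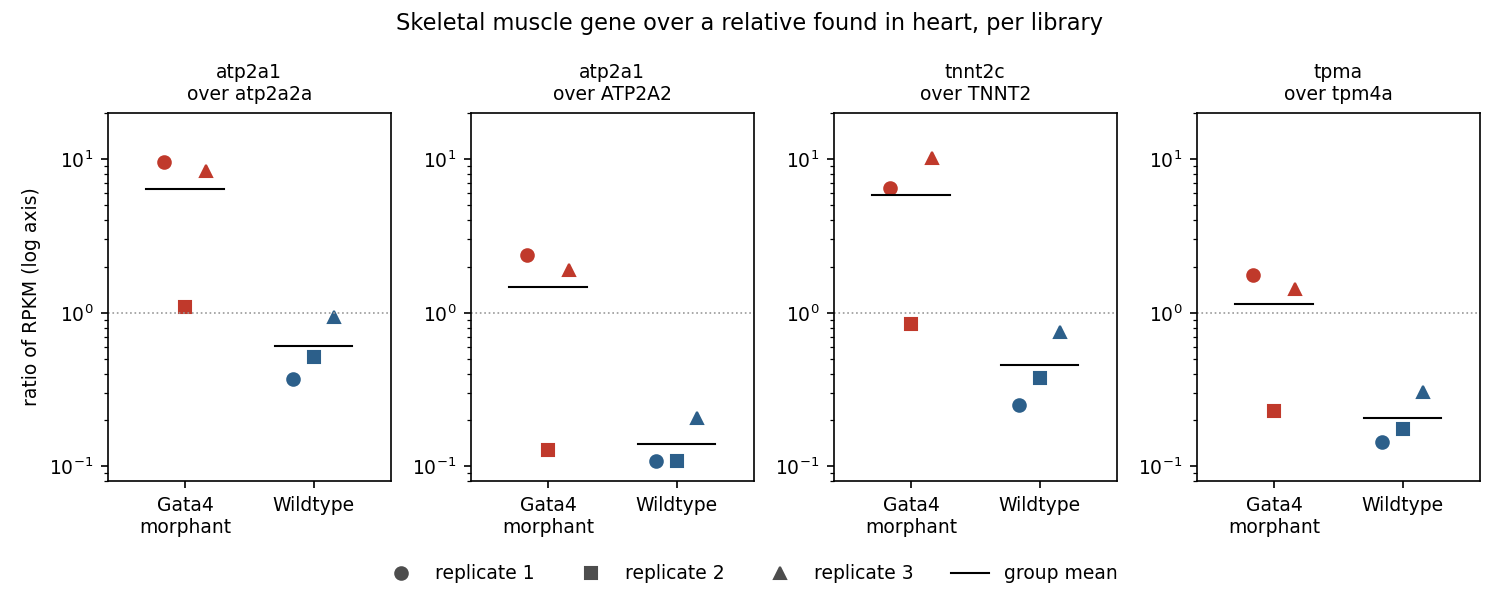
Ratio of the RPKM of a skeletal muscle gene to that of a relative found in heart (vertical axis, log scale), in each Gata4 morphant and wildtype library, with a line for the group mean and a dotted line at equal RPKM. Morphant replicates 1 and 3 are above every wildtype library in all 4 panels, while morphant replicate 2 is above wildtype over atp2a2a and TNNT2 and inside the wildtype range over ATP2A2 and tpm4a.

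These ratios move through the cardiac genes as well. Of 18 cardiac contractile genes tested, 17 had a negative log2 fold change. At an unadjusted edgeR p under 0.05, 14 were lower, where 887 of all 18033 genes tested were lower. For 15, each morphant library lay below all wildtype libraries (5.78% of all genes did). The summed level of that list was 2454, 3112 and 3205 CPM in morphants, against 9158, 5564 and 5259 CPM in wildtype. The 9 skeletal rows summed to 3661, 966 and 4882 CPM in morphants and 1832, 1397 and 1765 CPM in wildtype. The defining cardiac genes MYL7, MYH7 and TNNT2 were above 0 in every library, and of the 19 rows of that list LMOD2 (ENSDARG00000045634) was at 0 in some. Leukocyte markers, 15 of 16 of them negative, had the sums given above, with MPEG1 (ENSDARG00000078569) at 0 in some library, and 23 of 23 neural markers were positive, with summed levels of 1578, 826 and 1303 CPM in morphants against 662, 495 and 614 CPM in wildtype. The part of these cell types in the values of the skeletal genes was not tested.

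Other genes of the fast fibre followed the same libraries. Of 24 rows of that list 18 were tested, of which 15 had a positive log2 fold change, 9 at an unadjusted edgeR p under 0.05, with a median of 1.99. Over all genes tested, 7.62% were higher and 12.5% differed in either direction at that p. The fast myosin heavy chain gene myhz2 had 328, 28.3 and 261 CPM in morphants, against 34.5, 37.6 and 63.3 CPM in wildtype, and a log2 fold change of 2.19 (SE 0.82). The troponin I gene TNNI2 (ENSDARG00000035958), the inhibitory subunit of fast fibres, had 285, 29.8 and 299.7 CPM in morphants, against 45.3, 44.2 and 48.6 CPM in wildtype. The fast Z-disc actinins actn3a and actn3b differed by 2.18 (SE 0.80) and 1.91 (SE 0.72) on the log2 scale. For each of these 4 genes edgeR gave an adjusted p of 0.393 over all libraries, and of 0.00971 when morphant replicate 2 was left out. The latter fit called 19.7% of all genes, 8.19% as higher, and 0.00971 was its smallest edgeR adjusted p. The negative values belonged to myhb, to the enolase gene ENO3 and to AMPD1 (-1.32, SE 0.57), and ENO3 had 77.5, 493 and 151 CPM in morphants and 247, 391 and 474 CPM in wildtype. The myosin heavy chain copies are close in sequence, and reads may have been split between them.

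Slow fibre genes were divided. Morphant replicates 1 and 3 were above every wildtype library in 4 of the 7 tested (28.6% of all genes). The list summed to 906, 1030.4 and 1234 CPM in morphants and 1221, 1536 and 1256 CPM in wildtype. Most of that sum in every library was tpm3, a gene with a negative log2 fold change, so the sum follows tpm3 more than the other genes. Of 8 rows 7 were tested, 5 with a positive and 2 with a negative log2 fold change, with a median of 1.03. At an unadjusted edgeR p under 0.05 there were 0, where 12.5% of all genes tested passed. TNNC1, a troponin C gene used by slow fibres and the heart, had 43.5, 8.03 and 56.7 CPM in morphants, against 12.1, 11.4 and 14.7 CPM in wildtype, and its log2 fold change was 1.51 (SE 0.69; adjusted p = 0.393, edgeR). The troponin I gene tnni1c had 16.0, 2.45 and 19.8 CPM in morphants and 3.74, 3.33 and 5.64 CPM in wildtype, and the myosin light chain gene myl10 had a log2 fold change of 1.46 (SE 0.73). The tropomyosin gene tpm3, at 518, 879 and 739.9 CPM in morphants and 852, 1104 and 1041 CPM in wildtype, and PRDM1, which sets slow fibre fate in the zebrafish, had values of -0.64 (SE 0.32) and -1.18 (SE 0.63). Whether fast and slow genes differed from each other in their fold change was not tested. Without morphant replicate 2, edgeR called 4 of the 7 higher and 0 lower, where 19.7% of all genes were called and 8.19% as higher.

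Genes listed as shared by fast and slow fibres were divided, and heart muscle uses some of them too. Of 26 tested, 21 were positive with a median of 0.94, and at an unadjusted edgeR p under 0.05 there were 6 higher and 1 lower. Over all genes tested, 7.62% were higher and 12.5% differed in either direction at that p. The kelch genes KLHL41 (ENSDARG00000006757) and KLHL40 (ENSDARG00000019125), which stabilise thin filament proteins, were higher by 2.23 (SE 0.75) and 2.63 (SE 0.88) on the log2 scale in the fit. The membrane gene cav3 and the leiomodin gene lmod3 of skeletal muscle had 2.50 (SE 0.87) and 2.35 (SE 0.82), each of the 4 with an edgeR adjusted p of 0.393. Morphant replicate 2 lay inside or below the wildtype range for each of the 4. The other rows of the kelch genes, KLHL41 (ENSDARG00000068888) and KLHL40 (ENSDARG00000039052), had 0.89 (SE 0.70) and 1.02 (SE 0.59). The gene lower at an unadjusted p under 0.05 was actn2b, a Z-disc actinin, at 47.4, 48.6 and 56.6 CPM in morphants and 194, 98.4 and 90.1 CPM in wildtype. ACTC1 was at 109.8, 183 and 150.4 CPM in morphants, against 384, 214 and 227 CPM in wildtype. For both genes all morphant values lay below the wildtype range. That held for 2 of the 26 genes tested in this list, and for 5.78% of all genes tested. Among the cardiac contractile genes it held for 15 of the 18 tested. Which cells the RNA of actn2b and ACTC1 came from was not tested.

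The genes that couple nerve signals to calcium release included CHRNA1, a subunit of the muscle acetylcholine receptor. Its level was 34.5, 12.3 and 51.3 CPM in morphants, against 4.46, 5.97 and 11.5 CPM in wildtype, so that every morphant library was above every wildtype library. That held for 2 of the 19 genes tested in this list, and for 7.76% of all genes tested. The log2 fold change of CHRNA1 was 2.09 (SE 0.61, edgeR unadjusted p = 0.0109, adjusted p = 0.393). RAPSN, which clusters that receptor, had 2.39 (SE 0.85), and the calcium channel subunit genes CACNB1 and CACNG1 (ENSDARG00000008772) had 1.89 (SE 0.60) and 2.17 (SE 0.76). RAPSN, CACNB1 and this CACNG1 row each had an edgeR adjusted p of 0.393, with morphant replicate 2 inside the wildtype range. Of 19 genes tested in this list 16 were positive, with a median of 1.24. At an unadjusted edgeR p under 0.05, 8 were higher and 0 lower, where 7.62% of all genes tested were higher. The negative values belonged to trdn (-0.84, SE 0.51), JPH1 (ENSDARG00000058603) (-0.77, SE 0.53) and atp2a1l (-0.16, SE 0.76). The level of trdn was 21.9, 6.59 and 11.3 CPM in morphants, against 57.8, 19.2 and 16.2 CPM in wildtype.

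Most regulators of the muscle lineage were high in the libraries in which the contractile genes were high, with 0 called in edgeR over all libraries. Morphant replicates 1 and 3 were above every wildtype library in 17 of the 19 tested (28.6% of all genes). Of 19 tested 17 were positive, with a median of 1.36. At an unadjusted edgeR p under 0.05, 10 were higher, where 7.62% of all genes tested were. The negative values belonged to MEF2C (ENSDARG00000009418) (-1.06, SE 0.60) and MEF2A (-0.94, SE 0.62). MEF2C (ENSDARG00000029764) was positive at 1.05 (SE 0.62). MYOG, which drives myoblasts into differentiation, had 54.9, 4.72 and 43.7 CPM in morphants, against 4.59, 4.01 and 8.65 CPM in wildtype, and MYOD1 had 49.6, 3.19 and 47.6 CPM in morphants, against 6.17, 4.38 and 5.77 CPM in wildtype. Neither gene was at 0 in any library. EYA1, a transcriptional cofactor of the somite, was at 63.6, 13.9 and 59.1 CPM in morphants and 17.3, 13.4 and 12.7 CPM in wildtype. Genes of the unsegmented mesoderm that forms the somites did not share a pattern. The gene tbx6 was at 25.8, 5.24 and 36.0 CPM in morphants and 3.54, 4.17 and 8.39 CPM in wildtype, so that it was high in morphant replicates 1 and 3. The genes named for their p were high in morphant replicate 1 above all, msgn1 at 16.2, 0.489 and 1.36 CPM and tbx16 at 11.6, 0.662 and 1.98 CPM in morphant replicates 1 to 3. In wildtype replicates 1 to 3, msgn1 had 0.459, 0.951 and 0.192 CPM and tbx16 0.984, 0.951 and 0.705 CPM. For msgn1 the log2 fold change was 3.71 (SE 0.78), with an adjusted p of 0.393 in edgeR and 0.00913 in DESeq2. It was the only gene that DESeq2 called of the 89 tested in the 5 muscle lists (1.12%), where DESeq2 called 1.56% of all genes. The level of msgn1 was at most 1.36 CPM outside morphant replicate 1, so its fold change rests on that library.

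Over the 5 lists, 74 of 89 genes tested were positive, and 33 were higher and 1 lower at an unadjusted edgeR p under 0.05. Over all genes tested, 7.62% were higher and 12.5% differed in either direction at that p. Genes of the 5 lists in either direction numbered 67 without morphant replicate 2, where 37.1% of all genes passed that p. They numbered 0 and 7 without morphant replicates 1 and 3 (2.51% and 6.30% of all genes), and 5 without wildtype replicate 1 or 2 (6.17% and 4.29%). Morphant replicates 1 and 3 were above every wildtype library in 67 of the 89 (28.6% of all genes), and morphant replicate 2 was below every wildtype library in 53 (23.6% of all genes). In edgeR 0 were called with all libraries. Without morphant replicate 2, 50 of 91 tested were called higher and 2 lower, where 19.7% of all genes were called and 8.19% as higher. These lists and the 9 rows come from the same libraries and are described side by side, with no test of a list.

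**Figure D4:**
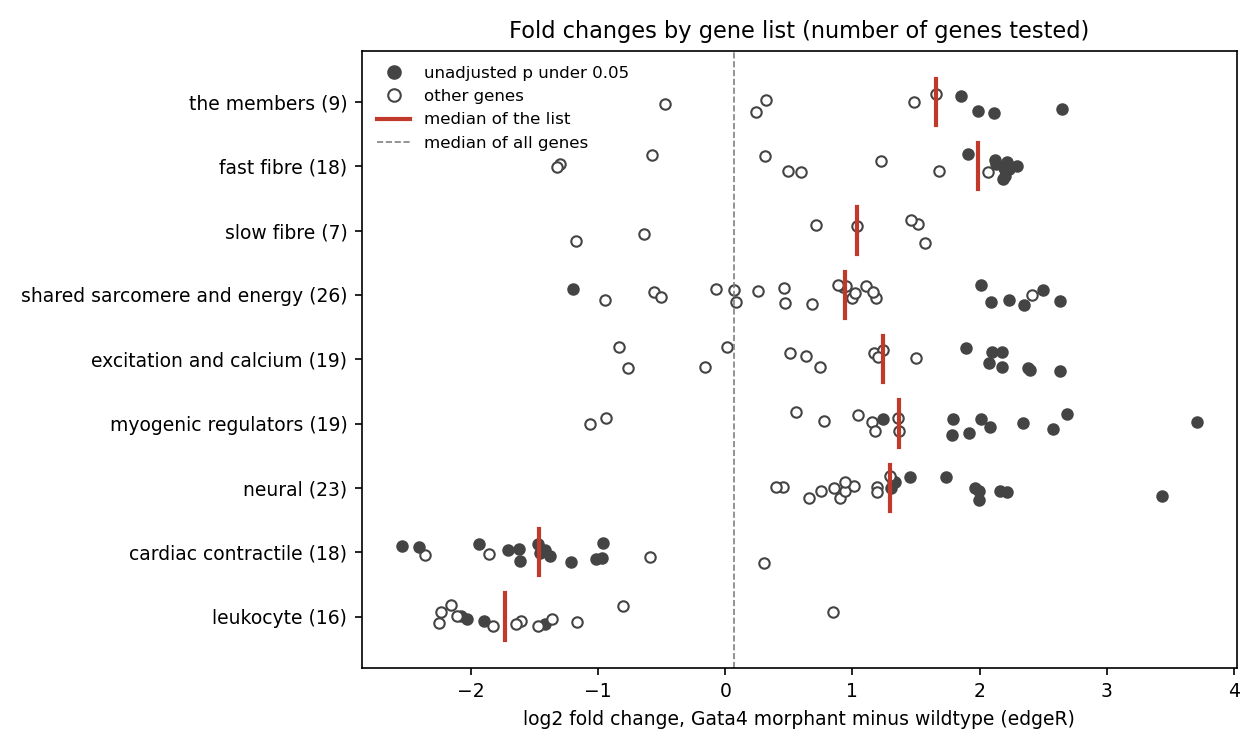
Log2 fold change, Gata4 morphant minus wildtype (horizontal axis), of each gene tested, by list, with filled points for an unadjusted edgeR p under 0.05, a red bar for the median of a list and a dashed line for the median of all genes (0.07). The 9 rows and the 5 muscle lists have medians of 0.94 to 1.99, all 23 neural genes are positive, and the cardiac and leukocyte lists have medians of -1.46 and -1.73.

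The genes most like the 9 rows in their profile over the 6 libraries were ranked by Pearson's r with the mean of the standardised log2(CPM + 1) profiles, among genes with a symbol and a mean of at least 10 CPM. The first 10 had r of 0.989 to 0.998 and were MAN2A2, TSPAN3 (ENSDARG00000034753), CRTAP, WNT11, LHFPL6, DHX35, tanc1a, KIF13A, si:ch211-133n4.4 and HES1, and 0 of them are in the lists. Their log2 fold changes were 0.18 to 0.92. WNT11, a secreted Wnt ligand, had 60.3, 14.5 and 73.7 CPM in morphants, against 29.1, 26.1 and 27.0 CPM in wildtype, with 0.92 as its log2 fold change (SE 0.59; adjusted p = 0.449, edgeR). With 6 points, of which 2 lie high and 1 low, such values of r describe the relative spacing of the libraries, not the size of a difference. The 9 rows themselves had r of 0.866 to 0.961 with that profile, except ACTA1 (ENSDARG00000055618) at 0.335. Each of the 9 is part of that profile, so its r is high in part by construction.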

How the data were processed

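RNA was measured in 6 libraries, 3 per group. Groups follow the label of the experimental group, and columns were matched by library name. Per the file headers, 1 deposited table holds raw counts for each Ensembl gene. In 100% of genes the deposited RPKM followed the count plus 1 (tolerance 1%). The mean signal per group (base mean), p-values and adjusted p-values were deposited by the authors too. Per the submitters' processing notes, CASAVA 1.7.0, BWA, DESeq and the build Zv9 were used, with no role given. Which tool counted the reads, with which annotation release and strand setting, is not given in the sources used here. The name table matched 19189 of 27456 identifiers (69.89%).

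The count test used edgeR 4.0.16 (R 4.3.3): TMM, filterByExpr, kit and group terms, two-sided quasi-likelihood F test, Benjamini-Hochberg adjustment, threshold 0.05. The filter kept 18033 genes, and 3 residual degrees of freedom remained. Log2 fold changes use a prior count of 0.125. The quasi-likelihood test gives no SE. The SE printed with an edgeR log2 fold change is its absolute value divided by the square root of the F statistic. The fits were run on simulated data to check the code. The simulated libraries had no kit effect and none that stood apart, so this check says nothing about the part of morphant replicate 2. DESeq2 1.42.0, limma-voom (limma 3.58.1), other scalings, filters, left-out libraries and fits within a kit were alternatives. The skeletal rows chosen by name had at least 194 counts in each library. For them counting error is small, so the spread between libraries limits precision. For genes at low levels, such as msgn1 at 0.192 CPM in wildtype replicate 3, counting error may not be small.

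The members and lists were chosen with earlier results of these data known. Besides the members, up to 4 genes per list with the smallest edgeR p are named, and 10 genes by likeness. ckmb, ENO3, AMPD1, myhb, PRDM1, actn2b, ACTC1, MYOD1, tbx6, MYL7, ATP2A2, TNNT2, tpm4a, obscnb and RYR1 were named after their values were seen. The same holds for trdn, JPH1, atp2a1l, MEF2C, MEF2A, myhz1.3, MYH6, mybpc2b and MYBPC3. Rows that names of 2 lists reach (TNNI1) were left out of both lists, and MYH7, named outright, counted as cardiac. Names outside the members were also matched by synonyms.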

Additional observations from a re-analysis of the deposited data

How the results depend on the processing

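All 9 members kept their sign and stayed uncalled with library totals alone, RLE size factors, no low-count filter, a filter of 1 CPM in 3 libraries, no kit term, DESeq2 and limma-voom. Called genes numbered 0 with all libraries, 44 with no low-count filter, 281 in DESeq2, 4352 in the mRNA-Seq libraries fitted alone and 1 in the TruSeq libraries, and 0 to 3745 when each library was left out in turn. Within either kit, called genes numbered 0 when both kits shared the spread, an alternative chosen after seeing the data, so the 4352 calls rest on the spread of the wildtype pair. Called members numbered 0 with all libraries and 0 to 6 over the left-out libraries (6 without morphant replicate 2, where 19.7% of all genes were called). Called genes of the 5 muscle lists numbered 0 in edgeR with all libraries and 1 in DESeq2, where 1.56% of all genes were called. They numbered 0 to 52 over the left-out libraries (52 without morphant replicate 2, where 19.7% of all genes were called). Members with every morphant library higher numbered 0, with 7 in the mRNA-Seq libraries (43.7% of all genes) and 0 to 7 over the left-out libraries (7 without morphant replicate 2, where 28.6% of all genes did). Members with every morphant library lower numbered 0, with 1 within the mRNA-Seq and TruSeq libraries (40.1% and 25.7% of all genes). They numbered 0 to 1 over the left-out libraries (1 without wildtype replicate 2 or morphant replicate 3, where 7.75% and 8.11% of all genes did). The log2 fold change of TNNT3 (ENSDARG00000068457) reversed to -0.29 in the TruSeq libraries, to -0.18 there with the spread of both kits, and ranged from -0.25 to 0.77 over the left-out libraries, negative without morphant replicate 1 or 3. That of ACTA1 (ENSDARG00000036371) ranged from -0.18 to 0.42, negative without morphant replicate 3. Fewer samples enter the fits within a kit and without a library. The cause of the other changes was not tested. No paired analysis was possible because the labels give no replicate numbers.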

Other observations

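NEB held a larger share relative to atp2a1 in the mRNA-Seq libraries than in the TruSeq libraries. The ratio in CPM was 0.162 to 0.347 over morphant replicate 1 and wildtype replicates 1 and 2, and 0.0663 to 0.108 over morphant replicates 2 and 3 and wildtype replicate 3. The giant Z-disc and M-band gene obscnb was at 79.5, 12.7 and 39.5 CPM in morphants, against 158, 25.4 and 20.5 CPM in wildtype replicates 1 to 3. RYR1 (ENSDARG00000023797), a calcium release channel, had 81.1, 12.5 and 94.0 CPM in morphants, against 59.8, 15.4 and 22.6 CPM in wildtype. Wildtype replicate 1 thus had the highest value of its group for NEB, obscnb and this RYR1 row, but not for atp2a1, at 187 CPM against 356 CPM in wildtype replicate 3. The part of the kit in these values was not tested.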
